A study of Mus musculus with 7 samples.

Results

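The BCL2 family decides whether a cell under stress opens its outer mitochondrial membrane and dies. Survival members (Bcl2, Bcl2l1, which encodes BCL-XL, and Mcl1) bind and restrain the pore-forming effectors Bak1 and Bax. BH3-only members (Bcl2l11, which encodes BIM, Bid, Bad, Bmf and Bik) carry a single short BH3 helix with which they occupy the survival proteins or engage the effectors. Bok is an effector-like member that is less dependent on the others.

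The account covers 10 genes of this family, taken as a fixed list by symbol and matched by Entrez number. All 10 were among the 27179 genes counted, and all 10 were among the 14436 that passed the filter on low counts. RNA came from alveolar macrophages, the phagocytes of the lung airspaces, sorted from bone marrow chimeras. Lethally irradiated C57BL/6-Ly5.1 recipients had been given 90% Ly5.2 marrow, either wild type (4 libraries) or Suz12 conditional knockout (Suz12 cKO, 3 libraries), mixed in both groups with 10% wild type Ly5.1 marrow. Suz12 is a core subunit of polycomb repressive complex PRC2, which silences genes by methylating histone H3. The Cre driver, the age of the mice, and whether the sort kept out competitor or recipient Ly5.1 cells were not given in the sources used here.

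The libraries held 48104653 to 79281431 counts, and values are given in CPM, counts scaled to the library total and by TMM factors. Suz12 was at 22.1, 23.6 and 15.1 CPM in Suz12 cKO replicates 1 to 3 and at 56.5, 56.3, 73.9 and 68.9 CPM in wild type replicates 1 to 4, so the groups followed their labels (log2 fold change -1.65, SE 0.18, edgeR adjusted p = 0.00134). Chil3, a defining gene of alveolar macrophages, was at 15811 to 20364 CPM in all 7 libraries. Itgax, another, was at 2045 to 2138 CPM in wild type and at 3115 to 3593 CPM in Suz12 cKO. It was called higher (log2 fold change 0.67, edgeR adjusted p = 0.000978). Of 14 alveolar macrophage markers 4 rose, Itgax among them, and 1, Plet1, fell (-0.49, edgeR adjusted p = 0.00855). Of 5 proliferation markers 0 rose and 4 fell. Haemoglobin RNA was at 39.7 CPM in wild type replicate 2 and at 145.7 and 108 CPM in Suz12 cKO replicates 1 and 2, against 1.94 to 3.72 CPM in the other 4 libraries. The term high in tissue RNA is used for these 3 libraries, and it rests on haemoglobin RNA alone. Wild type replicate 2 is the sole wild type library among the 3, and Suz12 cKO replicate 3 the sole Suz12 cKO library among the 4 low in it, so a comparison within either set rests on a single library of 1 genotype. Wild type replicate 2 stood apart from the other wild type libraries in several members and over the counted genes as a whole. A call that changed without that library is given beside the result.

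The promoters of 9 of the 10 genes were in the RefSeq table for GRCm38.p6, as windows from 250 bases before to 50 bases after the start site. PRC2 in mammals is found mainly at promoters rich in the dinucleotide CG, so the CG content is given here. The most upstream window of the members held 11 to 44 CG dinucleotides, with a median of 22. Over all 32851 windows the median was 7 and the upper quartile 20. That full set can hold several windows of a gene and was not limited to genes that passed the filter. Bcl2 was at the top with 44, a count reached by 2.25% of all windows, and Bak1 at the bottom with 11, reached by 41.4%. The 250 bases before the start site are printed for Bcl2 and Bmf, whose comparisons turned on a single library, and for Bcl2l11, the gene at which PRC2 has been described in myeloid cells. Each is written 5′ to 3′ along the gene's strand, with every CG in capitals.
Bcl2, chr1:106714291-106714540, minus strand: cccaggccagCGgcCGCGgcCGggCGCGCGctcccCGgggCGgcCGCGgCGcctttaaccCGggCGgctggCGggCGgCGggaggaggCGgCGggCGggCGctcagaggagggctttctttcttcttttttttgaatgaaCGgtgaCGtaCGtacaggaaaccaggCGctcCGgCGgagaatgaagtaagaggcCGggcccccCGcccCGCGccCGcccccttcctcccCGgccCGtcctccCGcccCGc
Bcl2l11, chr2:128125788-128126037, plus strand: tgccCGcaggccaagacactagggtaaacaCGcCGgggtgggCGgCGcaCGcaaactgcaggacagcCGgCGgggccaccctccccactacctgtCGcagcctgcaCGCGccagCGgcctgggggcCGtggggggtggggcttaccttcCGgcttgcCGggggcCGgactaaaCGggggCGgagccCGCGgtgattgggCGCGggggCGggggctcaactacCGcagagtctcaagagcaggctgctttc
Bmf, chr2:118549687-118549936, minus strand: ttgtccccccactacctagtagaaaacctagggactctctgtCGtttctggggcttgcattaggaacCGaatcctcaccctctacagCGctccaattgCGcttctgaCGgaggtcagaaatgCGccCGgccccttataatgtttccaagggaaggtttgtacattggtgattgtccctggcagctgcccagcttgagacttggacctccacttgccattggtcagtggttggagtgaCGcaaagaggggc

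The Bcl2 stretch held 36 CG, the Bcl2l11 stretch 24 and the Bmf stretch 8. The letters GTAAACA, a core sequence of FOXO factors, were searched on both strands of the whole windows. They were present in 1 of the 9 members, Bcl2l11, 227 bases upstream of the start site, and in 3.65% of all windows. The E-box CACGTG, bound by MYC and related factors, was in 0 of the 9 members and in 7.15% of all windows. A match of letters is a description of the window and not evidence of binding.

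None of the 10 genes was called between genotypes in the comparison of all libraries. By edgeR's quasi-likelihood test 0 were higher and 0 lower in Suz12 cKO at an adjusted p under 0.05, where 6.28% of all tested genes were called higher and 4.02% lower (10.3% in either direction). The smallest adjusted p was 0.172. At an unadjusted p under 0.05 there were 2 of the 10, Bcl2 upward and Bad downward, against 24.5% of all tested genes. DESeq2 also called 0 of the 10, against 15.6% of the genes to which it gave an adjusted p. The median log2 fold change of the 10 was 0.06 and the median size of change 0.28, against 0.00 and 0.28 over all tested genes. For 8 of the 10, all but Bcl2 and Bik, the 95% interval of the log2 fold change lay between -1 and 1, so that a change of 2-fold or more was outside the interval of each gene alone. For Bcl2 and Bik, both scarce, the intervals were wide.

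**Figure D1:**
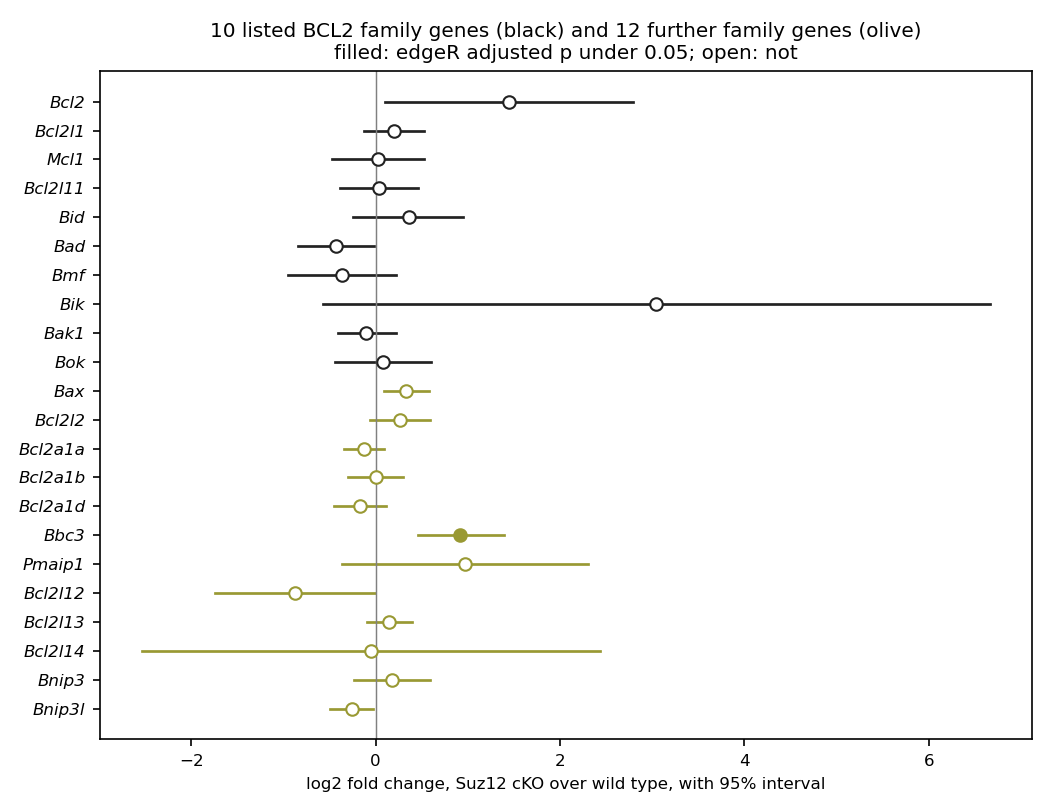
Log2 fold change of Suz12 cKO over wild type (x axis) with its 95% interval for the 10 listed BCL2 family genes (black) and 12 further family genes (olive), from edgeR on 4 wild type and 3 Suz12 cKO libraries. All 10 black points are open (not called); Bbc3, at 0.92, is the filled point.

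Levels between genes were compared per length, as CPM divided by the exon length in kb that the authors deposited. Mcl1, a short-lived survival protein needed by many myeloid cells, was far above the other listed genes. It was at 339 ± 119 CPM per kb in wild type and 346 ± 25.5 in Suz12 cKO (SD, n = 4 and n = 3). It made up 70.4% ± 7.35 and 72.2% ± 2.87 of the summed length-corrected level of the 10 genes. Outside the 10, the survival genes Bcl2a1a, Bcl2a1b and Bcl2a1d were at 177, 263 and 202 CPM per kb in wild type. In Suz12 cKO they were at 162, 263 and 179.7. The effector gene Bax, also outside the 10, was at 95.5 and 120.3 CPM per kb. Of the 10, Bak1 came after Mcl1, at 36.3 ± 4.52 and 33.9 ± 5.62 CPM per kb. It lay below each Mcl1 library and above each Bcl2l1 library in both genotypes. In wild type the next 6, in descending order of the mean, were Bcl2l1 (22.2 ± 3.78), Bcl2l11 (20.4 ± 1.73), Bad (16.6 ± 2.74), Bmf (15.3 ± 5.02), Bok (13.1 ± 3.27) and Bid (10.2 ± 2.96). Ranges overlapped between each neighbouring pair of these 6. Compared within each library, Bcl2l11 was above Bad in all 4 wild type libraries. Bmf was above Bok, and Bok above Bid, in 3 of them. Bcl2l1 was above Bcl2l11, and Bad above Bmf, in 2. Further apart in the order some ranges were separate: each Bcl2l1 and Bcl2l11 library was above each Bmf, Bok and Bid library, and each Bad library above each Bid library.

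Bcl2 and Bik formed the lowest tier, below each library of the other 8 genes. Their wild type means were 0.163 ± 0.112 and 0.0863 ± 0.119 CPM per kb, with ranges that overlapped. In Suz12 cKO the order of the first 4 genes was the same. Bok, Bid, Bad and Bmf followed at 13.8 ± 3.00, 13 ± 2.72, 12.4 ± 2.32 and 11.8 ± 0.646 CPM per kb, each overlapping its neighbour. Within single libraries Bok was above Bid, and Bid above Bad, in all 3, and Bad above Bmf in 1. The listed survival genes together took 75.3% ± 6.04 of the summed level of the listed genes in wild type and 77.7% ± 2.23 in Suz12 cKO. The 5 BH3-only genes took 13.8% ± 3.81 and 12.3% ± 0.856, and Bak1 with Bok 10.8% ± 2.36 and 10.0% ± 1.93. In each of the 3 classes the genotypes differed by less than the wild type SD, which takes in the outlying wild type replicate 2. That library had the highest survival share (84.3%) and the lowest BH3-only share (8.25%) of all libraries. Survival shares were 72.7%, 71.4% and 72.8% in wild type replicates 1, 3 and 4, below each Suz12 cKO library (77.9%, 79.8% and 75.4%). Their BH3-only shares (16.1%, 16.5% and 14.6%) lay above each Suz12 cKO library (13.1%, 11.4% and 12.4%). For Bak1 with Bok the shares overlapped. These shares cover the listed genes only. They leave out Bcl2a1a, Bcl2a1b, Bcl2a1d, Bcl2l2, Bax, Pmaip1 and Bbc3, so they do not give the balance of the whole family.

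**Figure D2:**
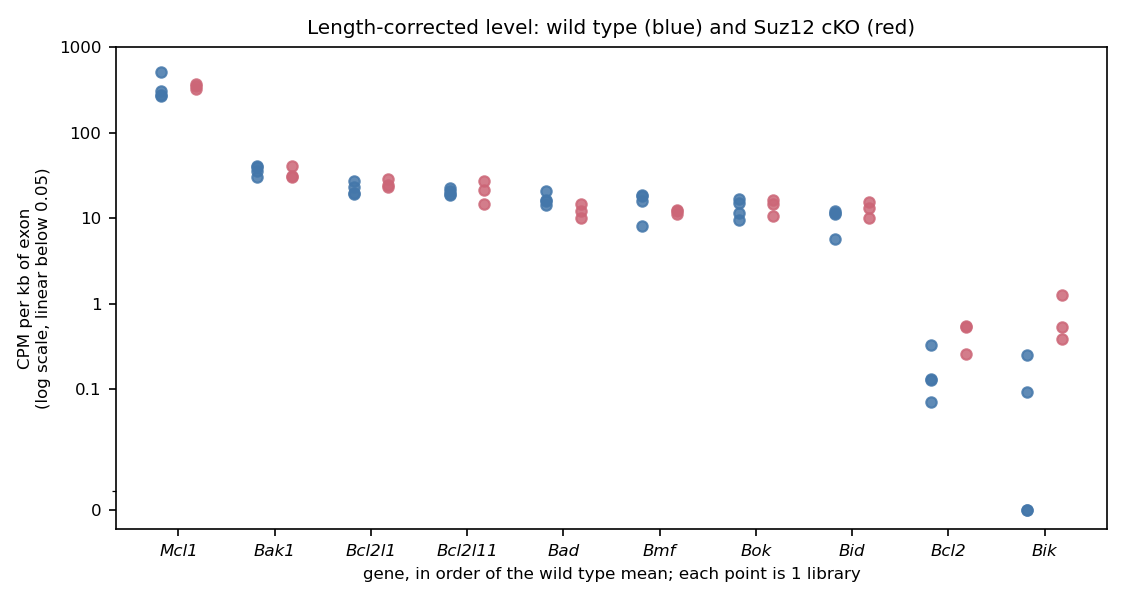
Level in CPM per kb of exon (y axis, log scale, linear below 0.05) of the 10 genes in order of the wild type mean, with 1 point per wild type (blue) or Suz12 cKO (red) library. Mcl1 lies above all others in every library, 7 genes lie between 5.78 and 40.4 CPM per kb, and Bcl2 and Bik lie at or below 1.27.

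Among the survival genes, Bcl2 (Entrez 12043, chromosome 1, 106538176 to 106714290 in GRCm38), the founding member, had the largest difference of the 9 members with a count in each library. Bcl2 was at 0.983, 2.53, 0.545 and 1.01 CPM in wild type and at 2.02, 4.13 and 4.23 CPM in Suz12 cKO, from 32 to 302 counts a library. Suz12 cKO replicate 1 lay below wild type replicate 2, so the groups overlapped, and the other 2 Suz12 cKO libraries lay above each wild type library. The log2 fold change was 1.45 (SE 0.59, 95% interval 0.10 to 2.79, edgeR adjusted p = 0.172). Without wild type replicate 2 it was 2.03 and Bcl2 was called (edgeR adjusted p = 0.0342), in a comparison that called 16.2% of all genes. Among the 4 libraries low in tissue RNA its log2 fold change was 2.31 (edgeR adjusted p = 0.116), and within the 3 high in it 0.28 (edgeR adjusted p = 0.844), with 1 Suz12 cKO and 1 wild type library respectively.

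Bcl2 is abundant in lymphocytes, so lymphocyte RNA is given beside it. The 6 T cell markers summed to 0.0498, 1.94, 1.02 and 1.09 CPM in wild type and to 3.38, 6.03 and 0.252 CPM in Suz12 cKO. The 6 B cell markers summed to 0.809, 4.63, 0.477 and 0.186 CPM and to 2.52, 8.16 and 0.504 CPM. Cd3d had no count outside Suz12 cKO replicate 2. The library highest in Bcl2, Suz12 cKO replicate 3 at 4.23 CPM, had the lowest T cell sum of the 3 Suz12 cKO libraries, whereas wild type replicate 2, highest in Bcl2 among wild type, was also highest there in both sums. In sorted bulk samples fewer cells of a type and less RNA per cell cannot be told apart. Of the exon bases of Bcl2 in the GENCODE annotation, 6.09% are shared with D630008O14Rik on the opposite strand, and the strand setting of the counting was not given in the sources used here.

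**Figure D3:**
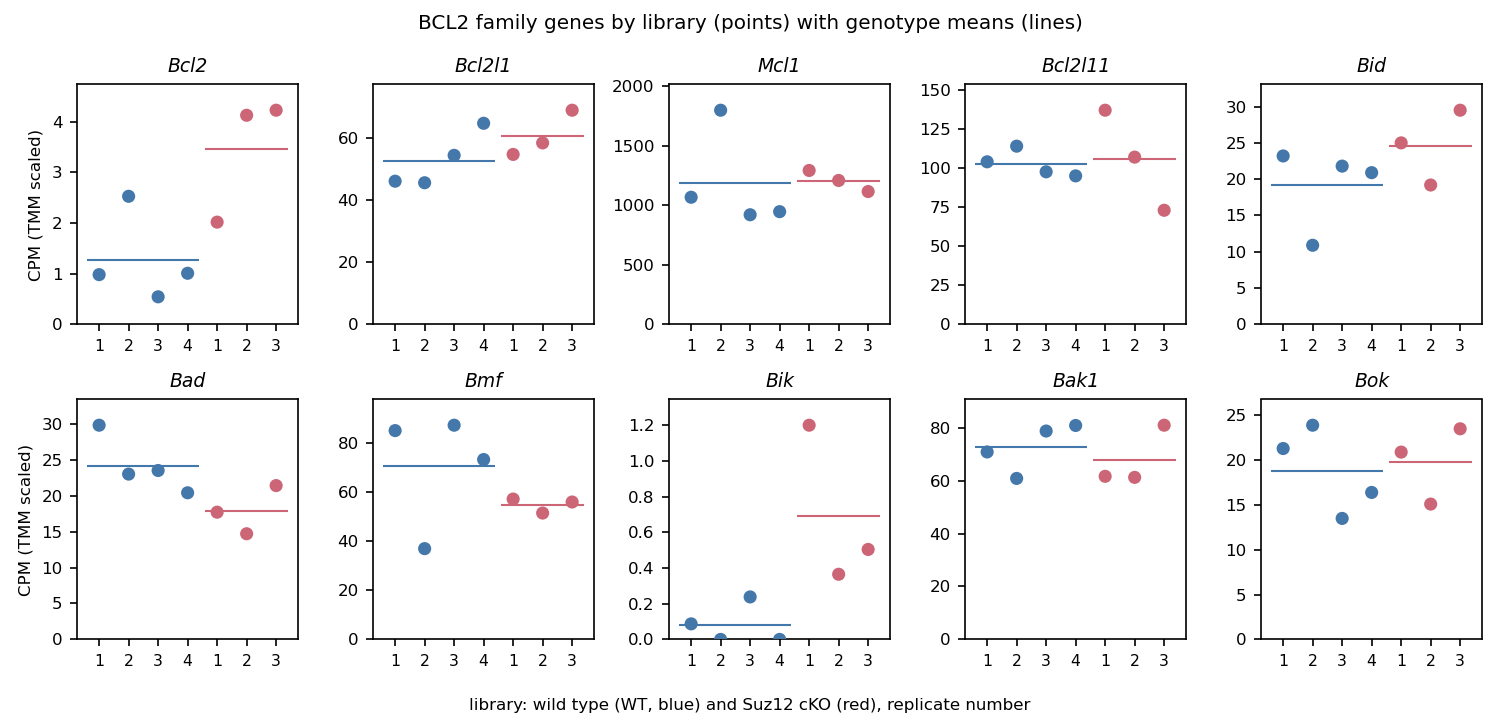
CPM after TMM scaling (y axes from 0) of the 10 genes in the 4 wild type (blue) and 3 Suz12 cKO (red) libraries, numbered by replicate, with lines at the genotype means. Wild type replicate 2 is the highest wild type library for Bcl2 and Mcl1 and the lowest for Bid and Bmf.

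Mcl1 (Entrez 17210, chromosome 3, 95656944 to 95663179) was at 1068, 1799, 921 and 947 CPM in wild type and at 1293, 1209 and 1116 CPM in Suz12 cKO. Wild type replicate 2 was the highest of all 7 libraries, and the other 3 wild type libraries were the lowest. The log2 fold change was 0.03 (SE 0.22, 95% interval -0.47 to 0.53, edgeR adjusted p = 0.965). Its sign depended on the libraries used, from 0.30 without wild type replicate 2 (edgeR adjusted p = 0.0572) to -0.52 within the 3 libraries high in tissue RNA, where wild type replicate 2 is the sole wild type library and Mcl1 was called lower (edgeR adjusted p = 0.0246, among 8.19% of all genes).

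Bcl2l1 (Entrez 12048, chromosome 2, 152758732 to 152833803) was at 46.0, 45.5, 54.3 and 64.6 CPM in wild type and at 54.6, 58.3 and 68.8 CPM in Suz12 cKO. Each Suz12 cKO library lay above 3 of the wild type libraries, and the groups overlapped through wild type replicate 4. Its log2 fold change was 0.20 (95% interval -0.13 to 0.53, edgeR adjusted p = 0.451), between 0.10 and 0.32 in all 16 alternative analyses, none of which called it.

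The BH3-only gene Bcl2l11 (Entrez 12125, chromosome 2, 128126038 to 128162547) encodes BIM, a main trigger of death in blood cells deprived of growth factors. In short-lived myeloid cells a long non-coding RNA gene near it, Morrbid, has been described to hold it down through PRC2. Bcl2l11 was at 104, 114, 97.6 and 95 CPM in wild type and at 137, 107 and 73.0 CPM in Suz12 cKO. The Suz12 cKO libraries enclosed the wild type range, with replicate 1 above it and replicate 3 below it. The log2 fold change was 0.04 (SE 0.19, 95% interval -0.39 to 0.46, edgeR adjusted p = 0.945), equal to a fold of 1.02 with limits of 0.765 and 1.37. Morrbid was at 16.9, 9.99, 13.9 and 15.3 CPM in wild type and at 7.97, 13.4 and 9.68 CPM in Suz12 cKO, with a log2 fold change of -0.44 (SE 0.24, edgeR adjusted p = 0.322). Neither gene of the pair was called. Among the 4 libraries low in tissue RNA the log2 fold change of Bcl2l11 was -0.45 (edgeR adjusted p = 0.0995), a value that rests on Suz12 cKO replicate 3, the lowest of all 7 libraries.

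Bmf (Entrez 171543, chromosome 2, 118528757 to 118549686), a BH3-only gene linked to loss of attachment, was at 85.1, 37.0, 87.3 and 73.3 CPM in wild type and at 57.2, 51.5 and 56.0 CPM in Suz12 cKO. The 3 Suz12 cKO libraries lay close together, below 3 of the wild type libraries and above wild type replicate 2. The log2 fold change was -0.36 (SE 0.26, 95% interval -0.95 to 0.22, edgeR adjusted p = 0.444). Without wild type replicate 2 it was -0.58 and Bmf was called lower (edgeR adjusted p = 0.00724). Within the 4 libraries low in tissue RNA, a set that also leaves out Suz12 cKO replicates 1 and 2, it was -0.56 (edgeR adjusted p = 0.0846), and within the 3 high in it, where wild type replicate 2 stands alone, 0.55 (edgeR adjusted p = 0.0825). With a term for tissue RNA it was -0.03 (edgeR adjusted p = 0.961).

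Bad (Entrez 12015, chromosome 19, 6941861 to 6951905), whose protein is held inactive by growth factor signalling, was at 29.8, 23.0, 23.5 and 20.4 CPM in wild type and at 17.7, 14.7 and 21.4 CPM in Suz12 cKO. Suz12 cKO replicates 1 and 2 were the lowest libraries, and replicate 3 lay above wild type replicate 4. Bad had a log2 fold change of -0.43 (SE 0.18, 95% interval -0.84 to -0.02), with an unadjusted edgeR p of 0.0415 and an edgeR adjusted p of 0.182. It was negative in all 16 alternatives, from -0.58 to -0.21, and called in none of them. Exons of Gpr137 on the opposite strand share 20.5% of the exon bases of Bad.

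Bid (Entrez 12122, chromosome 6, 120893119 to 120917062), which links death receptors to the mitochondrion once caspase-8 has cut its protein, was at 23.2, 10.9, 21.8 and 20.9 CPM in wild type and at 25, 19.2 and 29.5 CPM in Suz12 cKO. Wild type replicate 2 was the lowest library, and the groups overlapped. For Bid the log2 fold change was 0.36 (95% interval -0.24 to 0.95, edgeR adjusted p = 0.466). With a term for tissue RNA it was 0.70 and Bid was called higher (edgeR adjusted p = 0.0407, among 11.1% of all genes). Within the 3 libraries high in tissue RNA it was 1.02 (edgeR adjusted p = 0.0475), where the wild type arm is wild type replicate 2 alone, the lowest Bid library. Without that library it was 0.16 (edgeR adjusted p = 0.594). Exons of Bcl2l13, another family gene, share 17.7% of the exon bases of Bid from the opposite strand.

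Bik (Entrez 12124, chromosome 15, 83526790 to 83544635), a BH3-only gene of the endoplasmic reticulum, had 7, 0, 14 and 0 counts in wild type and 76, 24 and 36 counts in Suz12 cKO. These are 0.0871, 0, 0.238 and 0 CPM against 1.20, 0.365 and 0.504 CPM. A count of 0 allows up to 0.0492 CPM in wild type replicate 2 and 0.0619 CPM in replicate 4, limits that cover counting error only. They treat each count as independent, and would be higher if a count is less than 1 starting molecule. Bik was the sole member whose groups did not overlap. It lay higher in Suz12 cKO, as did 14.1% of all tested genes without overlap, and its Suz12 cKO mean was 8.47-fold that of wild type. The log2 fold change was 3.04 with an SE of 1.59 (95% interval -0.57 to 6.66, edgeR adjusted p = 0.290), so the difference was not resolved at this depth. Bik passed the filter on low counts through its Suz12 cKO libraries, so its direction was partly fixed by the filter. In the alternatives that tested it the log2 fold change ran from 2.17 to 8.63, the latter against wild type replicate 2 alone, which had 0 counts, and none called it.

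Neither effector was called. Bak1 (Entrez 12018, chromosome 17, 27019812 to 27028627) was at 70.8, 60.8, 78.7 and 80.8 CPM in wild type and at 61.6, 61.2 and 80.9 CPM in Suz12 cKO. Both groups spanned nearly the same range, and the log2 fold change was -0.10 (95% interval -0.41 to 0.22, edgeR adjusted p = 0.739). Exons of Ggnbp1 on the opposite strand share 25.5% of the exon bases of Bak1. Bok (Entrez 51800, chromosome 1, 93685575 to 93695770) was at 21.3, 23.9, 13.5 and 16.4 CPM in wild type and at 20.9, 15.1 and 23.5 CPM in Suz12 cKO, with a log2 fold change of 0.08 (95% interval -0.44 to 0.60, edgeR adjusted p = 0.893). The Suz12 cKO values of Bok lay inside the wild type range.

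**Figure D4:**
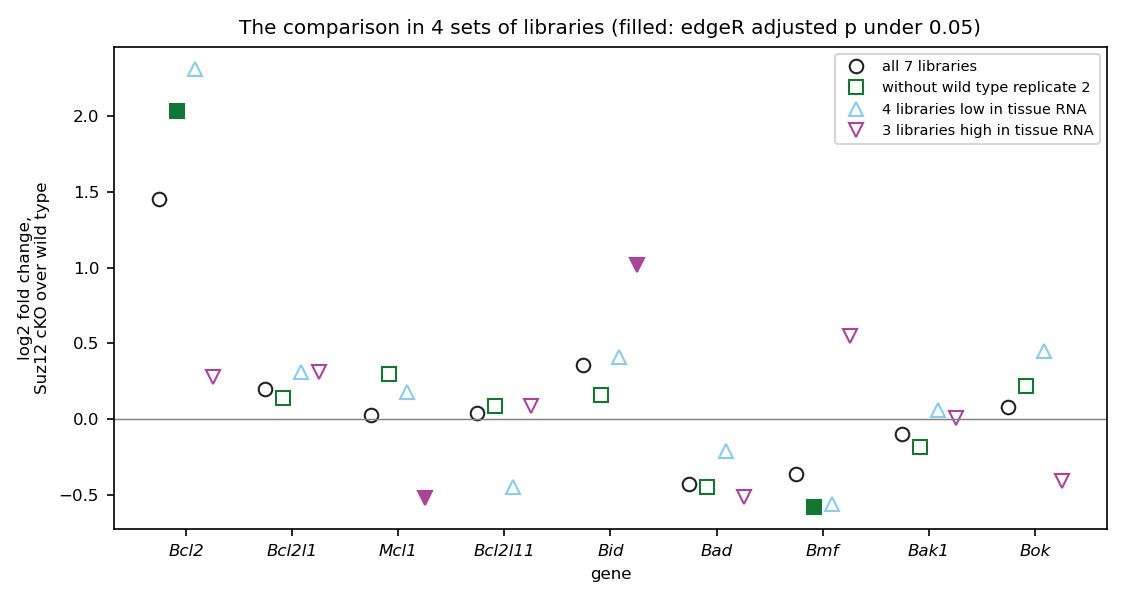
Log2 fold change of Suz12 cKO over wild type (y axis) for 9 of the 10 genes in all 7 libraries, without wild type replicate 2, and within the 4 libraries low or the 3 high in tissue RNA; filled symbols have an edgeR adjusted p under 0.05. Bik is left out for its zero counts. Bcl2 at 2.03 and Bmf at -0.58 are filled without wild type replicate 2, and Bid at 1.02 and Mcl1 at -0.52 within the 3 libraries high in tissue RNA.

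Genes whose log2 CPM most resembled that of the 3 members with the smallest p were listed over the 7 libraries, as a description. For Bcl2 these were the actin-binding protein gene Dbn1 (Pearson's r = 0.990), the tubulin gene Tubb2a (r = 0.987) and Btg3 (r = 0.985). For Bad they were Zfp946 (r = 0.983), Clns1a (r = 0.981) and Itpripl2 (r = 0.976), and for Bik the fibroblast growth factor family gene Fgf13 (r = 0.984), Gcn1 (r = 0.976) and Wdr41 (r = 0.974). None of these 9 genes was called between genotypes, and the points share their libraries. Each r was the highest found in a search over the tested genes with only 7 libraries. Values this high can arise in such a search without a link between the genes.

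The rest of the family was described from a list of 15 further genes, of which 12 were tested, 1 rose and 0 fell (median log2 fold change 0.08). Bbc3, which encodes the BH3-only protein PUMA, a classical target of p53, was at 10.7, 8.11, 9.83 and 11.9 CPM in wild type and at 15.3, 18.3 and 24.1 CPM in Suz12 cKO. All 3 Suz12 cKO libraries lay above the wild type range, and Bbc3 rose by 0.92 on the log2 scale (SE 0.20, edgeR adjusted p = 0.0240). The call was lost (edgeR adjusted p between 0.0546 and 0.0750) when wild type replicate 1 or 3 or Suz12 cKO replicate 2 or 3 was left out.

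Bax, the second main effector, was at 79.8 to 87.0 CPM in wild type and 90.4 to 121 CPM in Suz12 cKO. Its groups did not overlap and its log2 fold change was 0.33 (edgeR adjusted p = 0.0900, DESeq2 adjusted p = 0.0330). The difference in Bax was 0.55 within the 4 libraries low in tissue RNA and 0.15 within the 3 high in it. Each set has a single library of 1 genotype. Pmaip1, which encodes NOXA, the BH3-only partner of MCL1, was at 18.7, 99.1, 26.6 and 25 CPM in wild type and at 95.1, 114 and 38.8 CPM in Suz12 cKO. The 3 libraries high in tissue RNA were its 3 highest, and the log2 fold change of 0.97 was not called (edgeR adjusted p = 0.369), but was 1.82 and called without wild type replicate 2 (edgeR adjusted p = 0.00857). With a term for tissue RNA the difference in Pmaip1 was 0.42 (edgeR adjusted p = 0.160), and within the 3 libraries high in tissue RNA 0.08 (edgeR adjusted p = 0.83). The survival genes Bcl2a1a, Bcl2a1b and Bcl2a1d, near-identical copies between which reads may be split, had log2 fold changes of -0.13, 0.00 and -0.17, and Bcl2l2 had 0.27. Bcl2l13, Bnip3 and the mitophagy receptor gene Bnip3l had 0.15, 0.18 and -0.26, Bcl2l12 -0.87 (SE 0.38, edgeR adjusted p = 0.202) and Bcl2l14, at or under 2.02 CPM, -0.05. Of the 3 genes that were not tested, Bcl2l10 and Bcl2l15 had no count and Hrk had 24 counts in wild type replicate 2 alone.

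Genes around the family were taken as 4 lists. In the apoptosome and mitochondrial list, the machinery downstream of the BCL2 proteins, 0 of 16 genes rose and 0 fell by edgeR (median log2 fold change -0.14), with 1 at an unadjusted p under 0.05. Htra2, a mitochondrial protease, was the gene with the smallest p there (19.2 to 23.1 CPM against 25.1 to 28.9 CPM, log2 fold change 0.28, edgeR adjusted p = 0.194). Dffb, Vdac3 and Aifm1, the others of smallest p, had log2 fold changes of -0.62, -0.29 and -0.25. Of the 7 inhibitors of apoptosis, Birc3 rose and Birc5 fell (median 0.03). Birc3, which encodes cIAP2, was at 29.0 to 43.9 CPM in wild type and 47.8 to 57.7 CPM in Suz12 cKO (log2 fold change 0.55, SE 0.14, edgeR adjusted p = 0.0419). Its call was lost on leaving out any library except wild type replicate 2. Birc5, which encodes survivin and peaks in dividing cells, is on the list of proliferation markers too, and fell by 2.37 on the log2 scale (edgeR adjusted p = 0.00102). Xiap, a direct caspase inhibitor, and Naip2 had log2 fold changes of 0.08 and -0.07.

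In the death receptor list 2 of 14 genes rose and 0 fell (median 0.14). Tnfrsf10b, the mouse TRAIL receptor, was at 0.909, 1.67, 0.937 and 1.59 CPM in wild type and at 5.81, 5.71 and 6.66 CPM in Suz12 cKO (log2 fold change 2.25, SE 0.36, edgeR adjusted p = 0.00635). Ripk3, the kinase of necroptosis, was at 10.9, 14.3, 12.3 and 17.9 CPM and at 40.2, 44.4 and 40.9 CPM (log2 fold change 1.59, SE 0.17, edgeR adjusted p = 0.00130). For both genes the 3 Suz12 cKO libraries lay above the wild type range, and both calls held whichever 1 of the 7 libraries was left out. Within the 4 libraries low in tissue RNA Tnfrsf10b was at 2.53 and not called (edgeR adjusted p = 0.0519). Tnf, the inflammatory ligand of this pathway, was at 34.8, 119, 41.2 and 52.1 CPM in wild type and at 302, 269 and 72.9 CPM in Suz12 cKO (log2 fold change 1.79, edgeR adjusted p = 0.0676, DESeq2 adjusted p = 0.0476). Its 3 highest values were in the 3 libraries high in tissue RNA. Without wild type replicate 2 the difference in Tnf was 2.33 and called (edgeR adjusted p = 0.00922), and without Suz12 cKO replicate 3 it was 2.21 and called. With a term for tissue RNA it was 1.0 and called (edgeR adjusted p = 0.00573), within the 3 libraries high in tissue RNA 1.26 and called (edgeR adjusted p = 0.00109), and within the 4 low in it 0.76 and not called (edgeR adjusted p = 0.0909). Its receptor gene Tnfrsf1a had a log2 fold change of 0.25 (edgeR adjusted p = 0.272), and of 0.37 with a call without wild type replicate 2 (edgeR adjusted p = 0.0357).

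Of 23 regulators and binding partners of the family 2 rose and 1 fell (median -0.01). Foxo3, a transcription factor known to activate Bcl2l11 and Bbc3, was at 21.8 to 26.7 CPM in wild type and 37.6 to 45.2 CPM in Suz12 cKO (log2 fold change 0.80, SE 0.12, edgeR adjusted p = 0.00410). Its call was lost within the 3 libraries high in tissue RNA (0.69, edgeR adjusted p = 0.0661). Dynll2, the dynein light chain that tethers BMF, rose by 0.35 on the log2 scale (SE 0.09, edgeR adjusted p = 0.0462), and its call was lost on leaving out any 1 library. Myc fell by 0.93 on the log2 scale (edgeR adjusted p = 0.0250), and its call was lost without wild type replicate 3 or 4 or any 1 Suz12 cKO library, and within the 3 libraries high in tissue RNA (-0.41, edgeR adjusted p = 0.289). Mdm2, the p53 antagonist, was at 61.1, 108, 62.6 and 68.3 CPM in wild type and at 109.9, 142 and 97.8 CPM in Suz12 cKO (log2 fold change 0.64, edgeR adjusted p = 0.104, DESeq2 adjusted p = 0.0146), and was called without wild type replicate 2 (0.87, edgeR adjusted p = 0.00454) and among the 4 libraries low in tissue RNA (0.60, edgeR adjusted p = 0.0494). Over the 5 lists, 6 of the 72 tested genes rose and 2 fell, beside 6.28% and 4.02% of all tested genes.

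**Figure D5:**
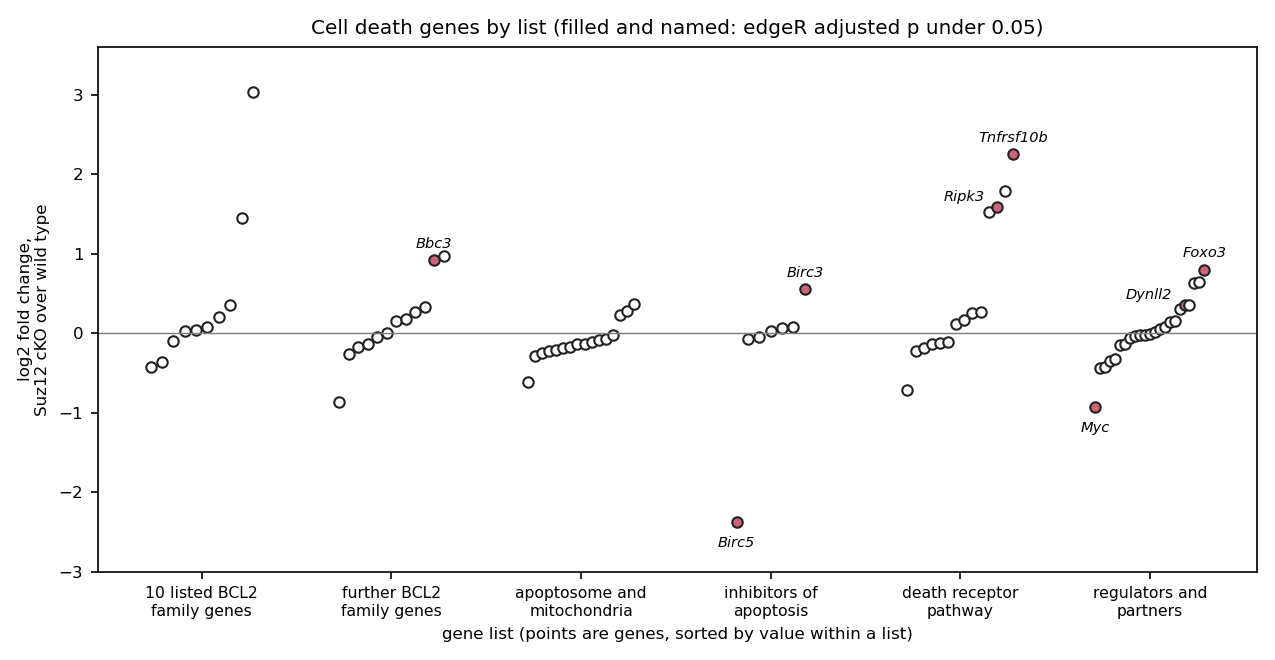
Log2 fold change of Suz12 cKO over wild type (y axis) of each tested gene (points, sorted by value within a list) in the 10-gene list and the 5 lists of related cell death genes; filled, named points have an edgeR adjusted p under 0.05. Tnfrsf10b (2.25) and Ripk3 (1.59) are the highest called genes, Birc5 (-2.37) the lowest, and no point of the 10-gene list is filled.

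RNA of other lung and blood cells is given beside these values. Of 7 neutrophil markers 4 rose and 0 fell, with sums of 56.4 to 66.9 CPM in wild type and 119 to 177 CPM in Suz12 cKO, and Ly6g was at 0 in all 7 libraries. The list of 7 interstitial macrophage and monocyte markers had 3 genes called higher and 0 lower, with sums of 1929 to 3129 CPM against 5039 to 6964 CPM. Fn1 made up nearly all of these sums, at 1832 to 2939.7 CPM in wild type and 4810.3 to 6823 CPM in Suz12 cKO. The called genes were Fn1, Vcan and F13a1, whereas Ccr2, Ly6c2, C1qa and Cx3cr1 were not called. No gene was called among the tested genes of the epithelial (7 of 7 tested), endothelial (5 of 5), erythroid (4 of 6), B cell (4 of 6), T cell (3 of 6), fibroblast (1 of 4) and NK cell (1 of 3) lists, and 0 of the 4 eosinophil genes passed the filter. The epithelial sum was 15.3 to 89.0 CPM in wild type and 20.1 to 73.7 CPM in Suz12 cKO, and was highest in wild type replicate 2. The fibroblast sum was 12.8 CPM in wild type replicate 2 and at most 2.97 CPM elsewhere, the NK cell sum at most 3.35 CPM and the endothelial sum, nearly all Vwf, 77.6 to 112 CPM. The eosinophil genes Prg2 and Epx had no count. The part of these cells in the values of the family was not tested.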

How the data were processed

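Alveolar macrophage RNA of 7 chimeras was read as single-end 85 bp TruSeq libraries, per the labels. The deposited values are whole-number counts per Entrez gene, made with featureCounts on mm10, per the submitters' processing notes; the aligner, annotation, strand setting and handling of reads with several matches were not given in the sources used here. The deposited exon length served for CPM per kb. Counts summed to 48104653 to 79281431 per library, above the stated 14 to 20 M reads. The reason was not settled, and a count may be less than 1 starting molecule. Each library had 303 to 684 genes at 1 to 5 counts and 728 to 2232 at 6 to 32. These ranges differ in width, so they do not show whether low counts are lacking. Libraries of a group differed beyond sampling noise (chi-square per degree of freedom 42.4 or more). This value was 188.91 to 220.64 between wild type replicate 2 and the other wild type libraries, and 50.82 to 78.2 among those others. Between Suz12 cKO replicate 3 and replicates 1 and 2 it was 167.03 and 148.07, and between replicates 1 and 2 it was 42.44. The design text calls the libraries biological replicates. Symbols and positions came from RefSeq GRCm38.p6 by Entrez number (25275 of 27179 matched), and exon overlaps from GENCODE vM21.

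Genes were filtered with filterByExpr (minimum count 10, minimum total 15), scaled by TMM and tested with edgeR 4.0.16 in R 4.3.3 (quasi-likelihood, genotype as the sole term, two-sided), with Benjamini-Hochberg adjustment over all 14436 tested genes. Calls were made below an adjusted p of 0.05. The SE is the log2 fold change divided by the square root of F, and 95% intervals use the total degrees of freedom. Resemblance between genes was measured on log2 CPM (prior count 2). Libraries over 20 haemoglobin CPM were called high in tissue RNA. Alternatives were DESeq2 1.42.0, other scalings and filters, each library left out, a replicate block and tissue RNA splits. The fit was tested on simulated data. The 10 members and all lists were chosen with earlier results of these data known. The text names the members, Suz12, all further family genes and the 4 genes of smallest p in each other list; marker lists are given as sums and counts, and other names were added after their values were seen.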

Additional observations from a re-analysis of the deposited data

Results flagged for a closer look

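Among the 40 genes examined for a wild type library far from the other 3 (the gap to the nearest library, divided by the group's range, above Dixon's critical value), 4 were found, and chance gives about 1 in 20. All 4 concerned wild type replicate 2, so they were not independent of each other. The share of all tested genes that the same rule would flag is not given here. An excess for these genes therefore cannot be read from the count. Mcl1 was at 1799 CPM there, against 921 to 1068 CPM in the other wild type libraries. Pmaip1, the gene of the MCL1 partner NOXA, was at 99.1 CPM against 18.7 to 26.6 CPM. Mdm2 was at 108 CPM against 61.1 to 68.3 CPM, and Htra2 at 19.2 CPM against 22.6 to 23.1 CPM. The haemoglobin sum of the same library was 39.7 CPM and that of the other wild type libraries 2.10 to 3.72 CPM, and its part in these values was not tested.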

How the results depend on the processing

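The count of 0 members called in each direction held in 13 of the 16 alternatives: leaving out single libraries gave 0 to 1 called higher and 0 to 1 lower, in each case Bcl2 or Bmf without wild type replicate 2. A term for tissue RNA called 1 member higher, and the 3 libraries high in tissue RNA alone called 1 higher and 1 lower. Of the related cell death genes, 10 were called higher by DESeq2, 3 to 10 without single libraries, and 1 to 2 lower without single libraries, with the replicate block, or in the 3 libraries high in tissue RNA (6 and 2 in the full comparison). Same-numbered libraries were not shown to pair: their deviations correlated at -0.04, 0.24 and 0.16 for replicates 1, 2 and 3. The replicate block lost Bbc3, Birc3, Myc and Dynll2, gained Mdm2, and left the 10 members uncalled. Suz12 kept its call and sign in all 16.

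Signs turned mainly for differences near 0. With the replicate block, Mcl1 was at -0.01, Bcl2l11 at -0.04, Bcl2a1b at -0.06 and Bcl2l14 at 0.60. With the tissue RNA term, Mcl1 was at -0.14, Bcl2l11 at -0.19, Bak1 at 0.05, Bcl2a1b at -0.09 and Bcl2l14 at 0.71. Within the 4 libraries low in tissue RNA, Bcl2l11 was at -0.45, Bak1 at 0.06, Bcl2l2 at -0.07, Bcl2l14 at 0.51, Vdac3 at 0.01 and Aifm1 at 0.03. Within the 3 high ones, Mcl1 was at -0.52, Bak1 at 0.01, Bmf at 0.55, Bok at -0.41, Bcl2a1b at -0.25, Bcl2l13 at -0.07, Bcl2l14 at 0.94 and Morrbid at 0.09. Without single libraries, Mcl1 ranged from -0.08 to 0.30, Bcl2l11 from -0.21 to 0.24, Bok from -0.06 to 0.24, Bcl2a1b from -0.09 to 0.11 and Bcl2l14 from -0.84 to 0.61. The cause was not tested. Fits with a lone library of a genotype assume that it varies like the other group. The filter at 1 CPM in 3 libraries left Bik out. Mcl1 made up 71.2% of the summed level per length of the listed members and 76.1% of their summed CPM. Depth limits Bik, with 0 to 14 counts in each wild type library.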
